A study of Mus musculus with 2 samples.

Results

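The HoxB cluster is a row of 10 Hox genes on mouse chromosome 11, here Hoxb1 to Hoxb9 and Hoxb13, and its CTCF sites were taken from a ChIP-seq experiment on embryonic lung. A site is the summit of a peak in the deposited optimal list, which was thresholded by the irreproducible discovery rate (IDR), a measure of reproducibility. A peak of this list need not be present in both replicate lists. All summits from 100 kb before to 100 kb after the span of the 10 genes were kept, whatever their signal, which gave 29 sites of 54943 on chromosomes 1 to 19 and X. The gene span covers chr11:96194316-96368256 (mm10, GENCODE M21), which is 173.9 kb, and the window 373.9 kb. In it 19 sites lay between the ends of the gene span, 5 on the far side of Hoxb13 and 5 on the far side of Hoxb1.

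ChIP-seq recovers DNA bound by a protein with an antibody, here against CTCF. There was 1 group of 2 samples. Both came from B6NCrl mice at embryonic day 14.5, with no modified gene and no treatment named. The tissue was pulverised lung, pooled over several dissections and over both sexes. Both are recorded under the same biosample and donor, so differences between them may be purely technical. With a single condition there was nothing to test between groups. The lists hold peaks and no read counts, so the depth behind a signal value is unknown. The signal is the peak caller's own enrichment value, compared here between sites of a list and not scaled between lists.

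Hox genes encode homeodomain transcription factors that set positional identity along the body axis. Within a cluster their physical order follows their order of expression along that axis, which is called colinearity, and the genes at the Hoxb13 end act posteriorly and those at the Hoxb1 end anteriorly. CTCF is a zinc finger protein that reads an asymmetric motif, and cohesin-driven chromatin loops tend to be anchored at motifs that point towards each other. In Hox clusters CTCF sites are known as borders between active and silenced gene groups. All 10 member genes were annotated on the forward strand, in the order Hoxb13, Hoxb9, Hoxb8, Hoxb7, Hoxb6, Hoxb5, Hoxb4, Hoxb3, Hoxb2 and Hoxb1. Sites are numbered below from 1 at the Hoxb13 side to 29 at the Hoxb1 side, so numbers run from posterior to anterior.

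The strand of a site was read from the best match to a 20-base motif within 50 bp of the summit. The motif matrix was learned from strong sites of the other autosomes, and its consensus is GTGGCCACCAGGGGGCGCCA. A match is called when its score, in bits, passes a threshold of 10.4. The 9 strongest sites with a match are shown first, because most of the high signals of the cluster belong to them. Their calls depend on the threshold: at a stricter one, which 0.1% of shifted windows reach, only site 2 of the 9 keeps its match. Each is 40 bases of mm10 (the RefSeq copy of GRCm38.p6), written 5′ to 3′ on the strand of its motif, with the motif in capitals.
Site 2, beyond Hoxb13, chr11:96127125-96127164, reverse strand: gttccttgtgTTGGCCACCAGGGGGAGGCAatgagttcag
Site 4, Ttll6 intron, chr11:96145767-96145806, forward strand: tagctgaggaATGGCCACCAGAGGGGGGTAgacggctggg
Site 8, Hoxb13 to Hoxb9, chr11:96235092-96235131, reverse strand: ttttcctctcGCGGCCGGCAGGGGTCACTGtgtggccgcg
Site 9, Hoxb13 to Hoxb9, chr11:96240408-96240447, reverse strand: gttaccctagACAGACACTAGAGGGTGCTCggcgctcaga
Site 10, Gm53 exon, chr11:96261739-96261778, reverse strand: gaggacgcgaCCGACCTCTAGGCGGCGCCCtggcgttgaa
Site 12, Hoxb9 to Hoxb8, chr11:96278934-96278973, forward strand: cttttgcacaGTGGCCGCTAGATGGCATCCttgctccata
Site 14, Hoxb6 intron, chr11:96294684-96294723, reverse strand: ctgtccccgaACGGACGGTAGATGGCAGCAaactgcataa
Site 16, Hoxb6 to Hoxb5, chr11:96303231-96303270, forward strand: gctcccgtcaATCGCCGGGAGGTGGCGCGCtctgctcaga
Site 29, beyond Hoxb1, chr11:96438936-96438975, forward strand: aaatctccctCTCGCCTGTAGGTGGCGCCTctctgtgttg

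Of these 9 sequences, that of site 2 had the highest score, 24.2 bits, and differed from the consensus at 3 of its 20 positions. The sequence of site 16, which had the highest signal of the window, scored 14.5 bits and differed at 8 positions, and its motif held 4 CpG dinucleotides. Those of sites 9 and 14 differed at 9 and 10 positions and scored 13.8 and 15.97 bits.

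**Figure D1:**
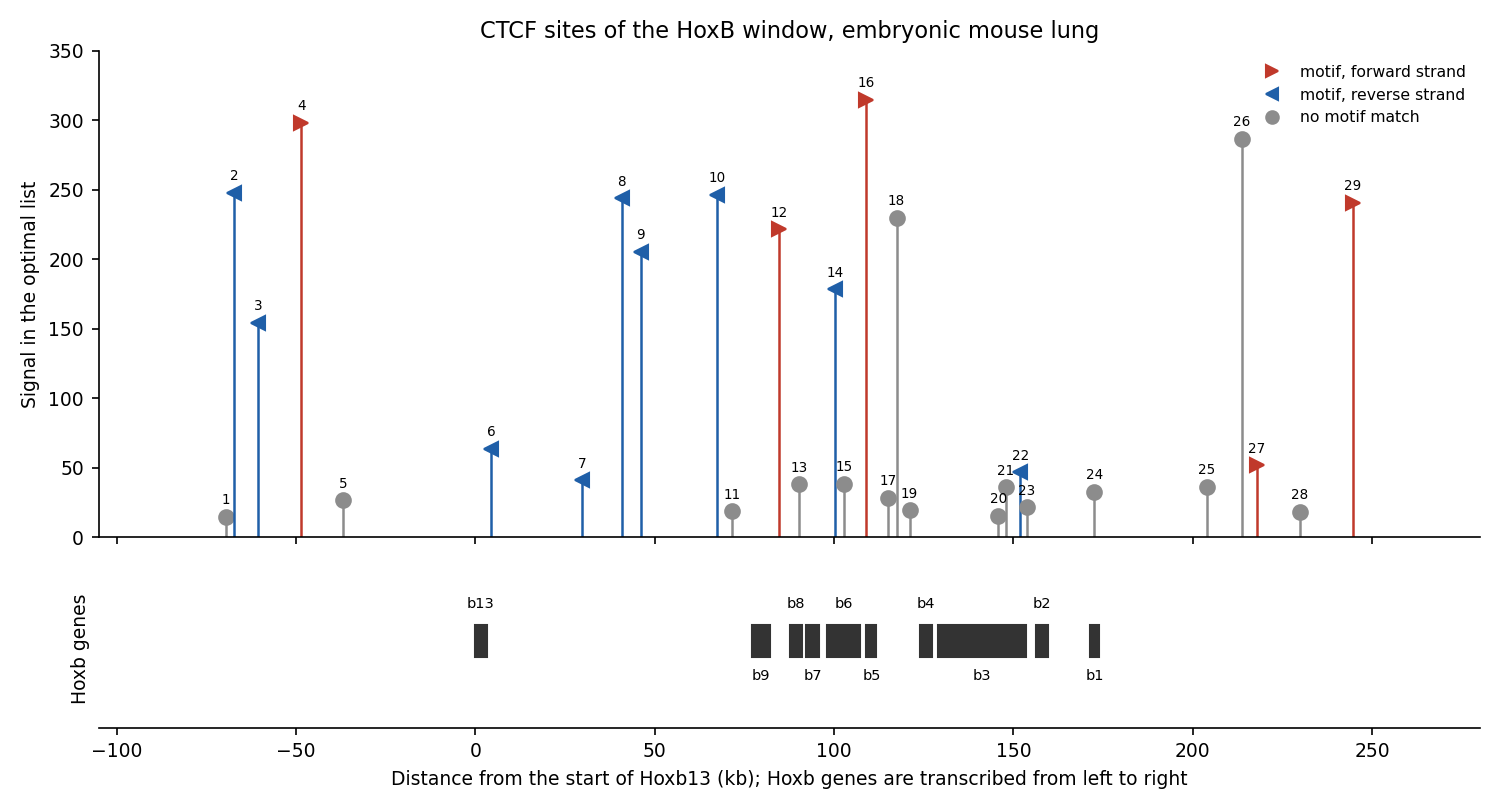
Signal of the 29 sites in the optimal list (vertical axis, linear) against distance from the start of Hoxb13 in kb (horizontal axis), with the 10 genes as boxes. Triangles point in the direction of the motif, grey circles had no motif match, and numbers are site numbers. Signals above 150 stood on both flanks and, inside the gene span, only from site 8 to the Hoxb5 to Hoxb4 gap. No site from Hoxb4 to the end of Hoxb1 passed 46.9.

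The signals fell into separate ranges. In the optimal list 12 sites lay between 154 and 315, the other 17 lay between 14.8 and 63.8, and none lay in between, although 24.7% of all sites of the list do. The cut of 150 used below was chosen after these values were seen. The 12 high sites were 41.4% of the window (95% Wilson interval 25.5% to 59.3%, which covers counting error only), and 25.4% of all sites have a signal above 150. That order depends on where in the empty range the cut is put: the same 12 sites lie above 63.8, and so do 49.3% of all sites, a share inside the interval. The 12 high sites carried 83.9% of the summed signal of the window, a share raised by their being picked by signal. The matching share over the whole list is not given here. Within the optimal list the percentiles of the 12 high sites ran from 75.4 to 95.6, and those of the 17 low sites reached at most 50.7. The median percentile over the 29 sites was 40.9.

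Both replicates showed the same division. The optimal signals of the 29 sites equal their pooled ones, made from the reads of both replicates. The replicates are therefore no independent check of the division. In replicate 1 the high sites had signals of 95.4 to 176 and the low sites 6.82 to 38.2, and in replicate 2 the high sites had 59.6 to 138 and the low sites 6.49 to 24.3. The ranges did not overlap in either replicate. Of the 29 sites 28 were present in both replicate lists, as were 53741 of all 54943 sites. Each replicate list holds 300000 peaks, so presence there is a weak requirement. Site 1, with 10.2 in replicate 1, had no peak over its summit in replicate 2. The ratio of replicate 1 to replicate 2 had a median of 1.27 over the 28 sites, and of 1.23 over the 53741 sites of the whole list with both values. For the high sites it ran from 1.14 to 1.60, and for the low sites over a wider range, from 0.367 (site 17) to 2.84 (site 25). The spread of the ratio among high and low sites of the whole list is not given here. Across the 28 sites, which share their libraries, Spearman's rho between the replicates was 0.912. The replicate summits lay a median of 9 bp apart and at most 43 bp.

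**Figure D2:**
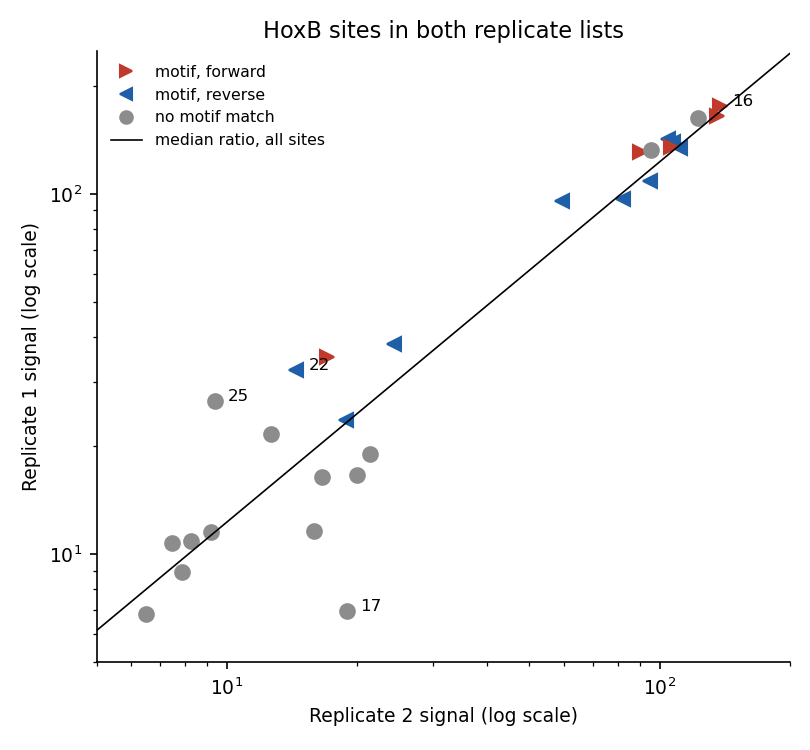
Signal in replicate 1 (vertical) against replicate 2 (horizontal), both on log scales, for the 28 HoxB sites present in both lists. The line is the median ratio of 1.23 over all sites; the high sites lie near it, while site 17 lies below with a ratio of 0.367 and site 25 above with 2.84.

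The posterior end of the cluster held an array of sites of the same orientation. Between Hoxb13, known for its role in the tail bud and the prostate, and Hoxb9, which helps to pattern the thoracic skeleton, there are 74009 bp with 6 sites. All 5 motif matches in this gap were on the reverse strand and so pointed towards Hoxb13. Neighbours on the same strand are common: they make up 51.7% of all pairs of neighbouring motif sites in the list. That share is for single pairs, and how often 5 motifs in a row share a strand is not given here. Site 8, 36345 bp before the Hoxb9 start, had a signal of 244 in the optimal list, 134 in replicate 1 and 112 in replicate 2. Site 9, 5301 bp further on, had 205, 109 and 95.1 in the same order. Site 10, 9708 bp before the Hoxb9 start and in an exon of the long noncoding RNA gene Gm53, had 246, 142 and 104.

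These 3 strong sites were similar in signal, and their motif scores ran from 13.8 to 18.9 bits. Site 6 lay 4440 bp after the start of Hoxb13 and beyond the end of the gene, with 63.8, 38.2 and 24.3, the highest of the low signals. Its match, at 11.2 bits, was close to the threshold and was called under 2 of 5 motif settings. Site 7, 29696 bp after the Hoxb13 start, had 41.3, 23.5 and 18.8. Site 11 had 18.7, 10.7 and 7.47 and lay 723 bp after the annotated start of Mir196a-1, a microRNA gene of the cluster. It had no motif match at the main setting, but its best score of 9.90 bits was close to the threshold. A reverse match was called there under 2 of the 5 motif settings. No site lay inside Hoxb13 or Hoxb9 itself.

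The stretch of the central genes, from Hoxb9 to Hoxb4, held more sites per kb than its neighbours in the span and the strongest site of the window. Site 12, in the 5309 bp gap between Hoxb9 and Hoxb8, had 222 in the optimal list, 131 in replicate 1 and 90.3 in replicate 2, with a forward motif. Going from posterior to anterior it was the first forward motif inside the gene span. Hoxb8, studied for its part in myeloid progenitors, held site 13 in its annotated 3′ UTR, with 38.2, 18.97 and 21.4 and no motif match. Hoxb7, expressed in the ureteric bud of the kidney, held no site, and no site lay in the gaps on its sides.

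Hoxb6, a gene of the lateral plate mesoderm, held 2 sites in an intron that is also an intron of the antisense transcript Hoxb5os. Site 14 had 179, 97.0 and 82.3 and a reverse motif. Site 15, 2517 bp further on, had 38.7, 16.6 and 19.98 and no match. ChIP-seq peaks have no strand, so neither transcript can be preferred.

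Site 16 was the strongest of the window and the only site within 1 kb of the start of a member gene. It lay 78 bp upstream of the start of Hoxb5, a gene of the embryonic lung mesenchyme, and 254 bp upstream of another annotated start of that gene. Its signal was 315 in the optimal list, 176 in replicate 1 and 138 in replicate 2, which put it at percentile 95.6 of the optimal list. Each replicate also ranked it as the highest of the 29. Its motif was on the forward strand, the strand on which Hoxb5 is transcribed, and its centre lay 7.5 bp before the summit.

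Between Hoxb5 and Hoxb4, a gene known from haematopoietic stem cells, there were 3 sites in 12145 bp and none had a motif match. Site 18 had 230, 133 and 95.8. Site 17 had 28.6 in the optimal list, 6.96 in replicate 1 and 18.98 in replicate 2, the lowest replicate ratio of the window. Site 19 had 19.4, 8.94 and 7.85 and lay 1813 bp upstream of Mir10a, the other microRNA gene of the cluster.

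Signals in the anterior genes were low throughout. From the start of Hoxb4 to the end of Hoxb1, which is 50 kb, 5 sites had signals of 15.5 to 46.9, and only 1 of them had a motif match. Hoxb3, which acts in hindbrain and pharyngeal patterning, held 3 of them. Site 20 had 15.5, 6.82 and 6.49, site 21 had 35.9, 21.5 and 12.6, and site 22 had 46.9, 32.5 and 14.5. Site 21 lay 80 bp upstream of the start of Gm11536, an antisense transcript in the same gene. Site 22 lay in a coding exon of Hoxb3 that overlaps an exon of the antisense transcript Hoxb3os, and it was the only one of the 5 with a motif, on the reverse strand.

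Site 23 lay between Hoxb3 and Hoxb2, 2527 bp upstream of Hoxb2, a hindbrain gene of the facial motor system, with 21.6, 11.5 and 9.19. Site 24 lay in a coding exon of Hoxb1, which specifies a segment of the hindbrain, with 32.98, 16.4 and 16.6. The 11739 bp between Hoxb2 and Hoxb1 held no site. Hoxb4 and Hoxb2 held none within the gene.

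Set side by side, 3 stretches of the span differed in what they held, by a division made after the values were seen. From the Hoxb13 start to the Hoxb9 start, 77.1 kb, there were 6 sites of which 3 were high and 5 had a motif. From there to the Hoxb4 start, 46.8 kb, there were 8 sites, or 17.1 per 100 kb, of which 4 were high and 3 had a motif. From there to the Hoxb1 end, 50 kb, there were 5 sites, or 10 per 100 kb, of which 0 were high. The highest signals in the 3 stretches were 246, 315 and 46.9. In replicate 1 they were 142, 176 and 32.5, and in replicate 2 they were 112, 138 and 16.6, in the same order.

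The distance from site 18 to the next high site, site 26, was 96.2 kb, with 7 low sites in it. Gaps of this length are common in the list: 37.1% of the 13926 gaps between neighbouring sites above 150 were at least as long, and their median was 58.3 kb. Inside the window the median gap between high sites was 15753 bp. The anterior gap was not the only long one. From site 4 (summit at 96145782) to site 8 (summit at 96235112), a stretch that contains Hoxb13, there was no high site either. Sites 5, 6 and 7 in it were low, with 26.9, 63.8 and 41.3.

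Both flanks held high sites again. Beyond Hoxb13, site 2 had a signal of 248, 139.8 and 107 and a reverse motif, and site 4, in an intron of Ttll6, a tubulin polyglutamylase gene, had 298, 165 and 136 and a forward motif. Site 3, 101 bp upstream of the Ttll6 start, had 154, 95.4 and 59.6 and a reverse motif. The low sites there were site 1, with 14.8, and site 5, in another part of a Ttll6 intron, with 26.9.

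Beyond Hoxb1 all 5 sites were intergenic. Site 26 had 287, 163 and 123 without a motif match, and site 29 had 241, 135 and 106 with a forward motif. Site 27 had 52.1, 35.3 and 17.03 with a forward motif, and sites 25 and 28 had 36.5 and 18.3 without one. At the edges of the window, the next site beyond site 1 lay 779 bp outside with a signal of 302 and a forward motif. The next beyond site 29 lay 68103 bp outside with 288 and no match.

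Hoxb5 was thus the only one of 10 HoxB genes with a site within 1 kb of its start, or 10% (Wilson interval 1.79% to 40.4%), and 26.6% of all protein-coding genes have such a site. The interval contains the background share. For the other 9 genes the nearest site lay 1090 bp (Hoxb1) to 7974 bp (Hoxb3) from the start. The signals of those nearest sites ran from 18.7 for Hoxb9 to 179 for Hoxb6. With every annotated transcript start in place of the gene start, 3 genes had such a site. Hoxb3 came in through site 20, 836 bp upstream of an internal start, and Hoxb1 through site 24, 584 bp after one. The share of all protein-coding genes by this definition is not given here. With the starts of all annotated genes, noncoding ones included and 1 start a gene, 4 of the 29 sites, or 13.8%, lay within 1 kb of a start, against 14.7% of all sites.

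**Figure D3:**
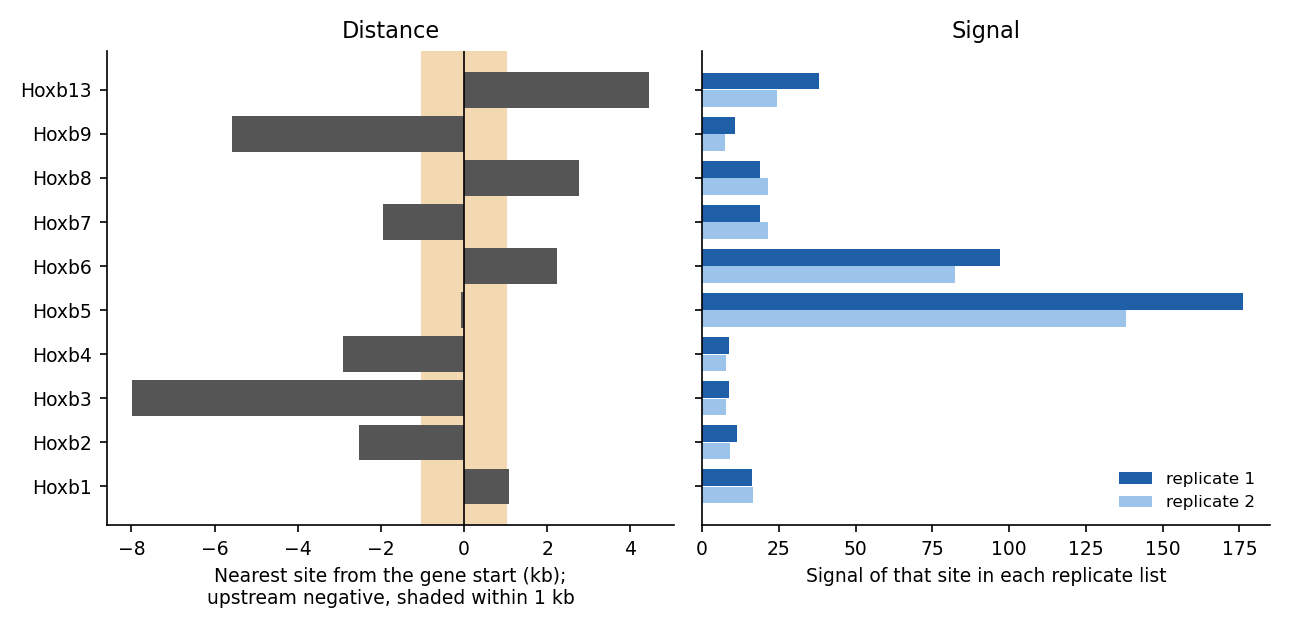
For each of the 10 HoxB genes, posterior at the top, the left panel gives the distance in kb from the gene start to its nearest site (upstream negative, 1 kb on each side shaded) and the right panel the signal of that site in replicate 1 and replicate 2. Hoxb5 has a site at -78 bp and the highest bars, 176 and 138, followed by Hoxb6 with 97.0 and 82.3.

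A motif match was present at 14 of the 29 sites, or 48.3% (Wilson interval 31.4% to 65.6%), against 61.1% of all sites, a share inside that interval. Of the 12 high sites 10 had one, or 83.3%, and among all sites above 150 the share is 84.6%. Of the 17 low sites 4 had one, or 23.5% (9.56% to 47.3%), and among all sites of 150 or less it is 53.1%. Among all sites of up to 63.8, the range that the low sites cover, it is 45.8%, which lies inside that interval. Across the 29 sites the best motif score and the signal had a Spearman's rho of 0.605, and across all sites it was 0.475. Among the 14 sites with a match rho was -0.21, while over all matched sites it was 0.342.

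The weak relation among matched sites stood beside 3 sites that had good motifs and low signals. They are shown here because their scores are above those of all high sites except site 2, again on the motif strand with the motif in capitals.
Site 7, Hoxb13 to Hoxb9, chr11:96223993-96224032, reverse strand: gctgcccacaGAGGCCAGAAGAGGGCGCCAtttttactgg
Site 22, Hoxb3 coding exon, chr11:96346181-96346220, reverse strand: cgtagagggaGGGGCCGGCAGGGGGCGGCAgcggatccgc
Site 27, beyond Hoxb1, chr11:96412119-96412158, forward strand: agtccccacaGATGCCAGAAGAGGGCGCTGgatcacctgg

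Site 22 scored 21.9 bits with 4 differences from the consensus, site 7 scored 21.8 bits with 4, and site 27 scored 19.4 bits with 7. Their scores stood at percentiles 92.7, 92.4 and 81.9 of all sites, and their signals at percentiles 40.9, 36.2 and 44.4. Site 16 had the reverse order, with percentile 56.7 by score and 95.6 by signal. Sites 7 and 27 had their summits in soft-masked sequence, the lower-case repeats of the genome file, and site 22 did not. The motif of site 22 held 2 CpG dinucleotides, in a stretch of 201 bp with 70.1% G and C, the highest of the 29. DNA methylation was not measured here, and whether repeats or base composition have a part in these signals was not tested.

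The opposite case was formed by sites 18 and 26, which had high signals and no match. The whole peak of site 26 is shown on the forward strand, because its best score came close to the threshold, with the best-scoring 20 bases within 50 bp of the summit in capitals.
Site 26, beyond Hoxb1, chr11:96407781-96408017, forward strand: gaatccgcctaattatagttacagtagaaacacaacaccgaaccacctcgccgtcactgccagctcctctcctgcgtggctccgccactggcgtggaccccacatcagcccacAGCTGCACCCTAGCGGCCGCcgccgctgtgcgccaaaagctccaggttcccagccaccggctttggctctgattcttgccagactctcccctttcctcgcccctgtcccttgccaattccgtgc

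The best score within 50 bp of the summit of site 18 was 2.04 bits, far below the threshold, and no match was called there under any of the 5 motif settings. At site 26 the best score was 9.66 bits on the reverse strand, just below the threshold, and a match was called only when the search was narrowed to 25 bp. No match says only that this matrix did not score these letters. Both sites were in the conservative list and in both replicates, with 133 and 95.8 for site 18 and 163 and 123 for site 26.

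**Figure D4:**
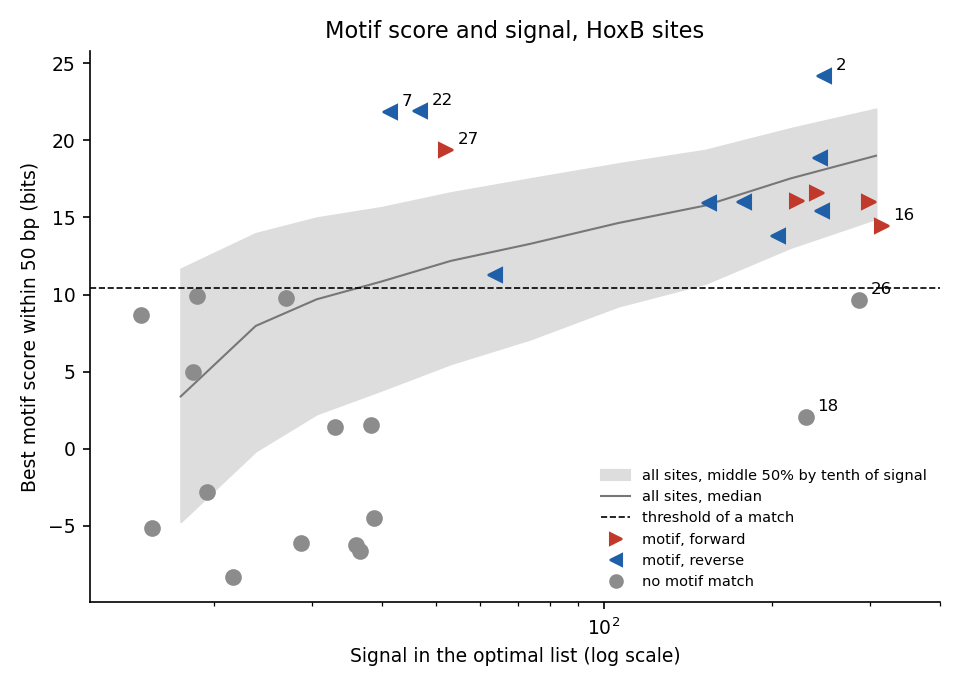
Best motif score within 50 bp of the summit, in bits (vertical), against the optimal signal on a log scale (horizontal) for the 29 sites. The line is the median and the grey band the middle 50% of all sites in 10% steps of signal, and the dashed line is the threshold of a match. At their signal 14 sites lie within the middle 50%, 4 above it (sites 2, 7, 22 and 27) and 11 below it, of which sites 16, 18 and 26 have high signals.

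Of the 14 motifs 9 were on the reverse strand and 5 on the forward strand, against 16848 reverse and 16716 forward over all sites. At the stricter threshold of 0.1% only sites 2, 7 and 22 kept a match, all reverse, so the order given here holds for the main threshold. From posterior to anterior the strands ran reverse, reverse and forward beyond Hoxb13 (sites 2, 3 and 4). They then ran reverse at all of sites 6, 7, 8, 9 and 10, forward at 12, reverse at 14, forward at 16, reverse at 22, and forward at 27 and 29. Neighbouring motif sites formed 13 pairs, of which 3 were convergent, with the motifs pointing towards each other, 4 divergent and 6 in tandem. The convergent share was 23.1% (Wilson interval 8.18% to 50.3%), against 24.1% of all such pairs of the list. Of all such pairs 51.7% are in tandem and 24.1% divergent.

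The convergent pairs were sites 4 and 6, 52974 bp apart with the Hoxb13 gene between them, sites 12 and 14, 15753 bp apart, and sites 16 and 22, 42963 bp apart. The pair of sites 12 and 14 enclosed Hoxb8, Hoxb7 and the gene start of Hoxb6, but not the other annotated start of Hoxb6. Both sites of this pair were high, with 222 and 179. The pair of sites 16 and 22 ran from the Hoxb5 start into Hoxb3 and had signals of 315 and 46.9. The pair of sites 4 and 6 rested on the near-threshold motif of site 6. Without that match the next motif after site 4 is that of site 7, also on the reverse strand, so a convergent pair would remain. Site 4 was called under 4 of the 5 motif settings and site 7 under all 5. Peak lists hold no contacts, so whether any pair forms a loop was not measured.

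Other features of the sites stand here beside those of the whole list. In the conservative list, the shorter of the IDR lists, 25 of 29 were present, or 86.2%, against 87.5% of all sites. The 4 absent ones, sites 1, 17, 20 and 25, all had signals of 36.5 or less. Soft-masked summits made up 5 of 29, or 17.2%, against 19.6%, and all 5 were low sites. All 17 low sites had peaks of exactly 290 bp, and the high sites had peaks of 193 to 254 bp. That width is no property of the cluster, since 81.7% of all sites of 150 or less had it and 0.172% of those above. The median G and C content over 201 bp was 53.2%, against 49.3% of all sites, and the median number of CpG dinucleotides was 7 against 3.

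The pooled list, made from the reads of both replicates, has 300000 peaks in all. It held 127 peaks in the window, the 29 optimal sites included. Of these 98 were not optimal sites, 21 of the 98 were found in both replicate lists, and 4 had a motif match. Their highest signal was 31.5, beyond Hoxb13. The conservative list held 4 of the 98, that one included, and so had 29 peaks in the window as well. From the Hoxb4 start to the Hoxb1 end there were 20 such peaks, with a highest signal of 21.1.

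Against the other Hox clusters, taken by the same rule, the HoxB window held the most sites. It had 29, or 7.76 per 100 kb, against 14 for HoxA (4.59 per 100 kb), 10 for HoxC (3.17) and 9 for HoxD (3.03), and 2.08 over the genome. Within the gene spans the densities were 10.9, 7.60, 4.32 and 6.20 per 100 kb. More sites did not mean stronger ones: in the same order the median signals of the windows were 46.9, 144, 49.4 and 124, lowest in HoxB. Of the strongest 10% of all sites the windows held 3, 2, 1 and 1, and each gene span held 1. These are single counts and medians in 1 experiment and were not tested against each other.

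Gaps between genes of the same paralog groups can be set side by side. The Hoxb5 to Hoxb6 gap had a site of 315 with a motif, and the Hoxa5 to Hoxa6 gap one of 168 with a motif. The Hoxb4 to Hoxb5 gap had a highest site of 230 and the Hoxa4 to Hoxa5 gap one of 121, and neither gap held a motif match. Between the genes of groups 8 and 9 there was a motif site in each cluster that has both genes, with 222 in HoxB, 297 in HoxC and 244 in HoxD. Other gaps differed. The Hoxa6 to Hoxa7 gap (5768 bp) had a site of 172 and the Hoxb6 to Hoxb7 gap (2313 bp) none. The Hoxb2 to Hoxb3 gap (2594 bp) had a site of 21.6 and the Hoxa2 to Hoxa3 gap (4230 bp) none. The Hoxc4 to Hoxc5 gap (1504 bp), unlike that of Hoxb4 to Hoxb5 (12145 bp), had none. These gaps thus also differed in length.

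Of the 29 other Hox genes 6 had a site within 1 kb of the start, or 20.7%. They were Hoxa7 with a signal of 385, Hoxc5 and Hoxc10 with 203 each from 1 shared site at their annotated starts, Hoxa10 with 195, Hoxa5 with 168 and Hoxd10 with 75.5. Of 24 genes for cofactors and regulators of Hox genes 7 had one, or 29.2%. These included Pknox2 with 184 and Meis3 with 99.995, both of the homeodomain class that binds DNA with Hox proteins, and Cbx2, a Polycomb gene, with 99.7. The other 4 were Pbx4, Phc1, Meis1 and Rarg, with 39.2, 32.98, 20.9 and 19.7. Both shares stand beside the 26.6% of all protein-coding genes.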

How the data were processed

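CTCF ChIP-seq peak lists of 2 samples in 1 group were used: 1 list per replicate, 1 pooled list, and the optimal and conservative IDR lists, all on mm10. The authors deposited the signal of each peak as the enrichment value of their peak caller, in the narrowPeak layout, and per the deposited README the lists derive from alignments to mm10 with a shared control file. Which programs aligned the reads and called the peaks, and at which IDR cut-off, is not given in the sources used here. Signals were used as deposited and ranked within a list. No read counts were used, so depth is unknown, and the number of samples limits the precision.

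From these lists, sites were taken as summits (peak start plus summit offset) and joined to GENCODE M21 genes. The value of a site in another list is that of the strongest peak there that holds its summit. Pooled peaks were matched to optimal and conservative summits within 50 bp. A motif matrix of 20 positions was learned with Python 3.11.15 and numpy 2.4.6 from the 3000 strongest sites of autosomes other than 11, in 15 rounds from a 9-letter seed that dropped 30% of sites. A match is a score that 1.0% of windows shifted by 1 kb reach, and the search was tested on simulated sequences. A promoter site lies within 1 kb of a gene start. Intervals are Wilson at 95%. Sequences come from the RefSeq genome GRCm38.p6. The sequence of site 18 is not reported here. All 10 HoxB genes and all 29 sites are described, and other genes are named where they lie at or next to such a site or belong to a list. The members, lists and window were chosen with earlier results of these data known. Other list choices, flanks of 50 and 200 kb, motif settings and promoter definitions were tried as alternatives.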

Additional observations from a re-analysis of the deposited data

How the results depend on the processing

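With 2 samples of 1 biosample and no counts, values rest on ranks within a list, and depth cannot be set beside them. Of 67 comparisons with alternatives, 55 stayed and 12 moved, where a count moved by over 1.5 times and the median percentile by more than the SD between replicates. With the strongest 10000 optimal sites the window held 10 sites, 6 of them in the gene span, 8 with a motif, 1 convergent pair and a median percentile of 88.8; this cut removes low sites by construction. A motif threshold of 0.1% left 3 motif sites, 0 forward and 0 convergent pairs. Within 5 kb of the start 8 HoxB genes had a site, and with every transcript start 3 did. The shares of all protein-coding genes under these definitions are not given here, so the counts cannot be set against them. A flank of 200 kb gave 5 convergent pairs. Leaving out a replicate gave a median percentile of 41.7 (without replicate 1) to 50.6 (without replicate 2), against 40.9. The cause of the shift without replicate 2 was not tested. No paired analysis was possible because there is 1 group. The conservative list kept all counts within 1.5 times those of the optimal list.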
